A study of Drosophila melanogaster with 4 samples.

Results

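The 10 genes described here encode receptors that hold Drosophila melanogaster cells to the extracellular matrix, and proteins that join those receptors to actin inside the cell. They were chosen by symbol from a table of 15682 genes: 4 integrin subunits (mys, scb, mew and if), dystroglycan (Dg) and 5 intracellular adaptors (rhea, Vinc, Pax, Ilk and stck). All 10 were in the table and all 10 had an adjusted p-value. RNA was sequenced from ovary follicle cells, the somatic epithelium around the germ line, in 2 groups of 2 libraries. EGFR-activated cells carried UAS-EGFR-lambdatop, which encodes a constitutively active EGF receptor, together with UAS-CD8-GFP, a membrane-bound green fluorescent protein. Control cells carried UAS-CD8-GFP alone. In both groups rearing was at 18 °C, and adults spent 7 to 10 days at 29 °C before their ovaries were taken. The sources used here do not give the driver of these transgenes, the host strain or the number of ovaries behind a library. The submitters call the replicates biological.

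An integrin is a pair of one alpha and one beta chain. In the fly, the main beta chain, betaPS, is the product of mys, and it can pair with each of the alphaPS chains. The alpha chain sets which matrix protein is bound, and the tail of the beta chain recruits talin and the other adaptors that connect to actin. Follicle cells carry integrins and dystroglycan on their basal surface, against the basement membrane that wraps the egg chamber, and both take part in the elongation of the egg.

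Values here come from the authors' deposited table. It gives, for each gene, a mean normalised count over all 4 libraries, a log2 fold change of EGFR-activated over control cells with its standard error (SE), and a DESeq2 adjusted p. Values of single libraries were not analysed here, so no spread between replicates is printed and the groups cannot be checked for overlap. A group mean printed below was calculated from the mean over the 4 libraries and the fold change, for 2 libraries per group, and carries no error of its own. The authors' version of DESeq2 shrinks fold changes by default, so the 2 group means of a low gene may be printed closer together than they were. Fewer cells of a type and less RNA per cell cannot be told apart in such bulk samples. As a check of the labels, Egfr was at 10446 normalised counts in EGFR-activated cells and 3698 in control cells, a log2 difference of 1.498 ± 0.35 (SE, adjusted p = 0.000177 in the authors' deposited table). Centred on the ribosomal protein genes, a scale described below, Egfr was at 0.57 and did not pass. Native and transgenic Egfr reads were counted together.

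Matrix adhesion genes divided into 3 that fell and 7 that did not pass the test at an adjusted p under 0.05. The alphaPS3 integrin gene scb, the betaPS integrin gene mys and the vinculin gene Vinc fell, each to between 41.0% and 52.7% of its control level. None of the 10 rose. At an unadjusted p under 0.05 in the authors' DESeq2 table, 5 were lower, with mew and rhea added, and 0 higher. At that looser threshold stood 4189 of all 12650 genes with a p-value, both directions together. The shares that follow are at an adjusted p under 0.05 and are no background for the 5. Over all 9409 genes with an adjusted p, 17.5% were lower and 18.0% were higher, or 35.5% in either direction. Among genes with a mean of at least 1000, a limit set after the values were seen and one that all 10 exceed, 25.8% were lower and 17.7% higher (43.4% in either direction), so 3 of 10 is near that background. The median log2 fold change was −0.28 for the 10 genes, 0.06 for all genes with an adjusted p and −0.10 for those with a mean of at least 1000.

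**Figure D1:**
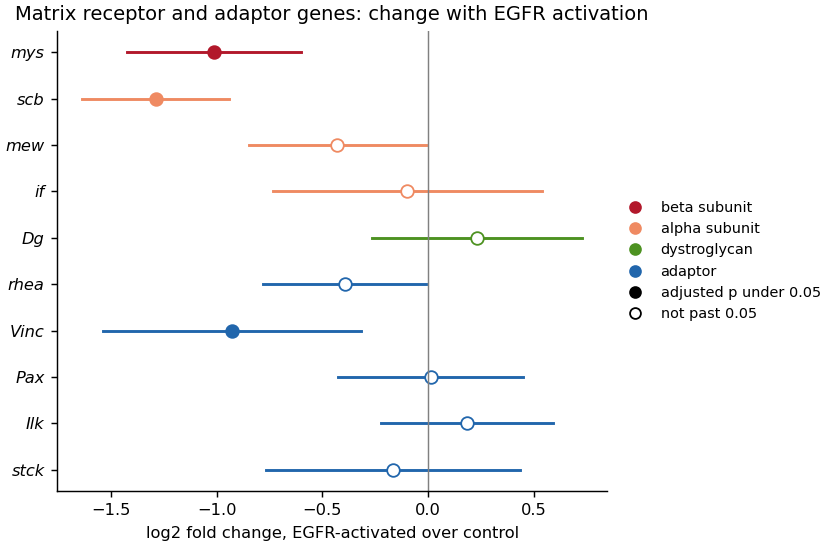
Log2 fold change of EGFR-activated over control cells for each of the 10 genes, from the authors' deposited table. Points are the fold changes, bars their 95% intervals from the standard errors, colours the roles, and filled points an adjusted p under 0.05: scb, mys and Vinc, at −1.29, −1.01 and −0.93, lie wholly below 0, and the intervals of mew and rhea end at −0.01.

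The integrin with the highest transcript level was scb, which encodes alphaPS3, a chain known for binding laminin and for roles in the migration of border cells. It had 18562 normalised counts in EGFR-activated cells and 45313 in control cells. In the authors' deposited table its log2 fold change was −1.29 ± 0.18 (SE), with an adjusted p of 2.53e-11. That places EGFR-activated cells at 41.0% of control, with a 95% interval of 32.2% to 52.1%. Only 7.14% of all genes with an adjusted p had a lower fold change.

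Its partner mys, the gene of the betaPS chain that the alpha chains share, had 15111 normalised counts in EGFR-activated cells and 30462 in control cells. The authors' deposited table gives −1.01 ± 0.21 (SE) on the log2 scale, with an adjusted p of 1.85e-05. Expressed as a share, the level was 49.6% of control, with a 95% interval of 37.3% to 66.0%. Both genes stood below 0 and past the threshold under all 8 alternatives tried, with adjusted p between 9.64e-34 and 5.48e-07 for scb and between 5.19e-19 and 0.00204 for mys.

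Neither of the other alpha chain genes among the 10 passed the test. The gene mew encodes alphaPS1, which binds laminin. It had 4174 normalised counts in EGFR-activated cells and 5620 in control cells. In the authors' deposited table it was at −0.43 ± 0.21 (SE, adjusted p = 0.104), with an unadjusted p of 0.0445, and so did not pass. The gene if encodes alphaPS2, which binds matrix proteins with an RGD sequence such as tiggrin and is prominent in muscle. It had 1135 normalised counts in EGFR-activated cells and 1214 in control cells, at −0.10 ± 0.32 (SE, adjusted p = 0.854 in the authors' deposited table). Its 95% interval runs from −0.73 to 0.54, which leaves room for a fall as well as a rise. The 95% interval of scb (−1.64 to −0.94) lay below that of mew (−0.85 to −0.01), and that of mys (−1.42 to −0.60) overlapped both. Differences between genes were not tested.

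The remaining 3 integrin subunit genes in the fly genome, alphaPS4, alphaPS5 and betaInt-nu, were read from the same table. The alpha chain gene alphaPS5 fell to 53.3 normalised counts in EGFR-activated cells, against 290.4 in control cells (−2.45 ± 0.28, SE, adjusted p = 7.13e-16 in the authors' deposited table). The second beta chain gene, betaInt-nu, known in the fly for roles in the midgut and in phagocytosis, had 871 and 2142 normalised counts in EGFR-activated and control cells (−1.30 ± 0.19, SE, adjusted p = 1.23e-10 in the authors' deposited table). The alpha chain gene alphaPS4, which the naming rule did not include, was at −0.62 ± 0.35 (SE, adjusted p = 0.154 in the authors' deposited table). In all, 4 of 7 integrin subunit genes fell and 0 rose, with fold changes of 7 genes between −2.45 and −0.10. The 4 include scb and mys, already counted above. Among all genes with an adjusted p, 17.5% were lower and 18.0% higher. Of those with a mean of at least 1000, 25.8% were lower and 17.7% higher. Only alphaPS4 and alphaPS5, with means of 605 and 172, were below that limit.

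Levels of different genes were compared per kb of exon, with exonic lengths from the BDGP6 annotation. Over the 4 libraries scb stood at 6382 and mys at 5084 normalised counts per kb, above 97.9% and 97.3% of genes with an adjusted p and a known length. Next came Dg at 1462, Vinc at 1411, stck at 1262, Pax at 1254, rhea at 1011, mew at 941, Ilk at 701 and if at 195. The order spans 32.7-fold. Without values of single libraries, it cannot be said which neighbours differ beyond their spread. The values of stck and Pax were close, at 1262 and 1254.

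**Figure D2:**
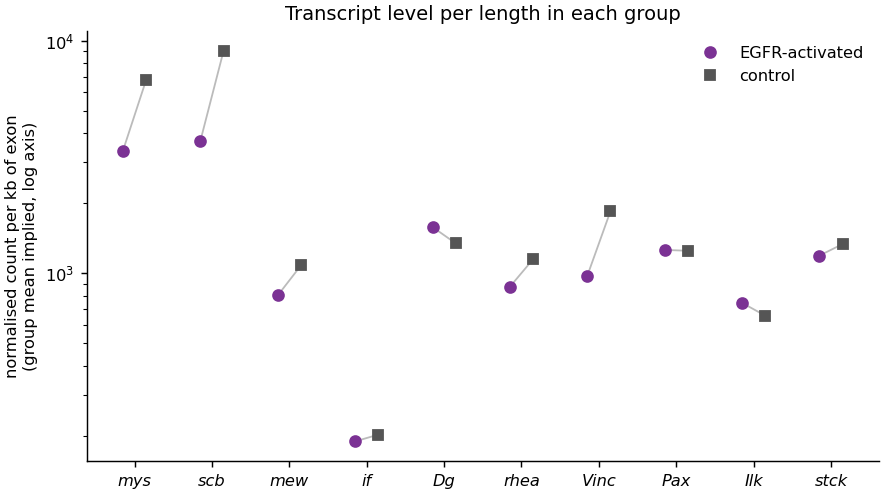
Mean normalised count per kb of exon in EGFR-activated cells (circles) and control cells (squares), on a log axis, for each of the 10 genes. Group means are those implied by the deposited mean and fold change and have no error bars; scb and mys are the highest of the 10 genes in both groups, at 3709 and 3371 in EGFR-activated cells and 9055 and 6797 in control cells, and if is the lowest in both.

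Per kb of exon, scb made up most of the transcripts of the 5 alpha chain genes. Its share of their summed level was 76.3% in EGFR-activated cells and 85.1% in control cells. The share of mew was 16.5% in EGFR-activated cells and 10.1% in control cells. The if gene held 3.89% in EGFR-activated cells and 1.90% in control cells. All alpha chain genes together came to 4859 normalised counts per kb in EGFR-activated cells and 10646 in control cells, or 1.44 and 1.57 times the level of mys in the same cells. These shares and ratios come from group means without an error and were not tested.

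Dystroglycan, the product of Dg, is a receptor outside the integrin family that binds laminin and perlecan and, through dystrophin, the cytoskeleton. Dg had 10319 normalised counts in EGFR-activated cells and 8779 in control cells. The authors' deposited table gives 0.23 ± 0.25 (SE, adjusted p = 0.512), which did not pass, with a 95% interval of 83.3% to 166% of control. Once a trend of fold change on exonic length, described below, was subtracted, Dg was at 0.64 and passed the threshold (adjusted p = 0.0448, within a range of 0.0119 to 1 over the 8 alternatives). Centred on the ribosomal protein genes it was at −0.70, the other sign, and also passed (adjusted p = 0.0119).

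Of 9 genes of the dystroglycan complex and of its glycosylation, 7 had an adjusted p. Of the 9, 2 fell, 0 rose and 7 did not pass or had no adjusted p, with a median log2 fold change of −0.39. Beside this, 17.5% of all genes with an adjusted p were lower and 18.0% higher. Dystrobrevin, the product of Dyb, is a relative of dystrophin. Dyb had 1510.3 normalised counts in EGFR-activated cells and 3467 in control cells (−1.20 ± 0.22, SE, adjusted p = 7.75e-07 in the authors' deposited table). Scgdelta, a sarcoglycan gene, had 166 normalised counts in EGFR-activated cells and 417 in control cells (−1.33 ± 0.42, SE, adjusted p = 0.00730 in the authors' deposited table). The dystrophin gene Dys, chosen here after its value was seen, was at −0.31 ± 0.24 (SE, adjusted p = 0.334 in the authors' deposited table). The sarcoglycan genes Scgalpha and Scgbeta, also chosen after their values were seen, had means of 5.30 and 2.74 normalised counts and no adjusted p.

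Among the 5 adaptor genes, Vinc fell. Vinculin binds talin and actin filaments at adhesion sites under tension. Vinc had 3827 normalised counts in EGFR-activated cells and 7269 in control cells. In the authors' deposited table it was at −0.93 ± 0.31 (SE, adjusted p = 0.0118), or 52.7% of control with a 95% interval of 34.5% to 80.4%. The call was lost with the length trend subtracted (−0.74, adjusted p = 0.0586), with Benjamini-Yekutieli adjustment (adjusted p = 0.115) and at a threshold of 0.01. Over the 8 alternatives the adjusted p ran from 1.52e-08 to 0.115.

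Talin, the product of rhea, binds the tail of the beta chain and actin and is needed for integrin function. The rhea gene had 9683 normalised counts in EGFR-activated cells and 12724 in control cells, at −0.39 ± 0.20 (SE, adjusted p = 0.106 in the authors' deposited table), and did not pass. The scaffold gene Pax, which encodes paxillin, had 5287 normalised counts in EGFR-activated cells and 5241 in control cells. Its fold change in the authors' deposited table was 0.01 ± 0.22 (SE, adjusted p = 0.974), with a 95% interval of 74.4% to 137% of control.

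Integrin-linked kinase (Ilk), PINCH (stck), parvin (CG32528 in the table) and the RSU1 protein (ics) form a complex at integrin adhesions. Ilk had 1655 normalised counts in EGFR-activated cells and 1457 in control cells, at 0.18 ± 0.21 (SE, adjusted p = 0.530 in the authors' deposited table). For stck these levels were 1884 in EGFR-activated cells and 2112 in control cells, at −0.16 ± 0.31 (SE, adjusted p = 0.724 in the authors' deposited table). Parvin and ics, chosen here after their values were seen, were at −0.20 ± 0.23 and −0.49 ± 0.38 (SE) in the authors' deposited table. None of these 4 genes passed the test, with fold changes between −0.49 and 0.18. The 95% intervals were −0.22 to 0.59 for Ilk and −0.77 to 0.44 for stck, so on the deposited scale falls of the size of that of scb lie outside both. With the length trend described below subtracted, stck was at −0.47 with the same SE and scb at −0.99. On that scale the fall of scb is not outside the interval of stck.

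A wider set of 25 further adhesion adaptors and signalling genes had 9 that fell, 0 that rose and 16 that did not pass, with a median of −0.28. Over all genes with an adjusted p, 17.5% were lower and 18.0% higher. Of those with a mean of at least 1000, 25.8% were lower and 17.7% higher. Fit2, one of the fly's kindlin genes, whose products activate integrins together with talin, fell to 279 normalised counts in EGFR-activated cells, against 1214 in control cells (−2.12 ± 0.23, SE, adjusted p = 4.56e-18 in the authors' deposited table). Its relative Fit1, chosen here after its value was seen, was at −1.28 ± 0.27 (SE, adjusted p = 3.20e-05 in the authors' deposited table). The tensin gene by, whose product binds integrin tails and actin, had 2219.9 normalised counts in EGFR-activated cells and 7739 in control cells (−1.80 ± 0.29, SE, adjusted p = 1.41e-08 in the authors' deposited table). Filamin, an actin crosslinker that also builds the ring canals of the germ line, is encoded by cher, which had 18505 normalised counts in EGFR-activated cells and 44301 in control cells (−1.26 ± 0.22, SE, adjusted p = 1.23e-07 in the authors' deposited table). After removal of the length trend, 5 of the 25 were lower and 2 higher, where 16.9% of all genes were lower and 11.3% higher.

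**Figure D3:**
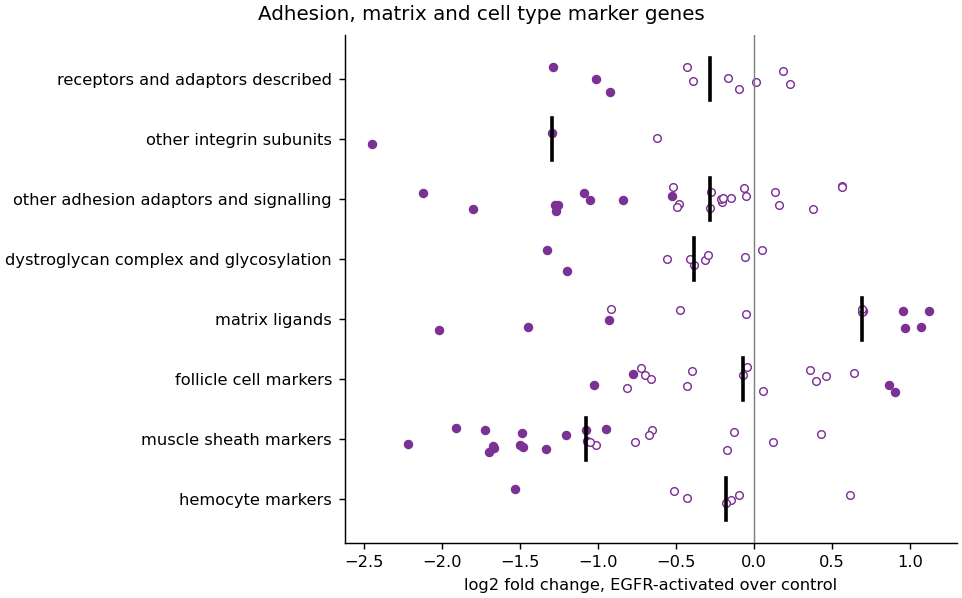
Log2 fold change of EGFR-activated over control cells for every gene with a p-value in 8 lists; each point is a gene, filled where the adjusted p in the authors' deposited table is under 0.05, and each black bar is a list's median. The 10 receptors and adaptors have a median of −0.28, matrix ligands 0.69 and muscle sheath markers −1.08. Centred on the ribosomal protein genes, the median of the matrix ligands turns to −0.24. With the trend on exonic length removed, it is 1.07 over the 11 matrix ligands that entered that step.

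Transcripts of matrix genes, among them ligands of these receptors, moved in both directions. Of 13 genes listed here as matrix ligands 5 rose, 3 fell and 5 did not pass. Their median was 0.69 (−0.24 on the scale centred on ribosomal protein genes). Among those that rose, vkg and Cg25C, for the type IV collagen chains, and trol, for perlecan, encode core components of basement membranes and had the smallest adjusted p. In the authors' deposited table they were at 1.12 ± 0.16, 1.07 ± 0.16 and 0.95 ± 0.19 (SE, adjusted p = 4.61e-10, 2.05e-09 and 1.04e-05). Of the 4 laminin chain genes, chosen here after their values were seen, LanB1 and LanB2 rose and LanA and wb did not pass. LanA was at 0.69 ± 0.32 (SE, adjusted p = 0.0735 in the authors' deposited table). With the length trend described below subtracted, LanA was at 1.22 and passed (adjusted p = 0.000879). Of the 11 matrix ligands that entered that step, 6 were then higher and 1 lower, with a median of 1.07. Over all genes in that step, 16.9% were lower and 11.3% higher. Centred on the ribosomal protein genes, none of the 13 was higher past the threshold.

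Tig, the gene of tiggrin, a ligand of the integrin that contains the if product, fell to 75.0 normalised counts in EGFR-activated cells, against 304 in control cells (−2.02 ± 0.34, SE, adjusted p = 9.67e-08 in the authors' deposited table). The nidogen gene Ndg, which links laminin and collagen networks, was lower at a low level, with 20.6 normalised counts in EGFR-activated cells and 56.4 in control cells (−1.45 ± 0.47, SE, adjusted p = 0.00934 in the authors' deposited table). The multiplexin collagen gene mp fell (−0.93 ± 0.31, SE, adjusted p = 0.0101 in the authors' deposited table), a call that was lost with the length trend subtracted (−0.53), at a threshold of 0.01 and with Benjamini-Yekutieli adjustment. That adjustment also ended the calls of Ndg, LanB2 and, in the dystroglycan complex, Scgdelta.

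Integrins and their adaptors are abundant at muscle attachments, and the ovary is wrapped in a muscle sheath, so markers of muscle were read beside them. Of 23 muscle sheath markers, 20 had an adjusted p. Of the 23, 14 fell, 0 rose and 9 did not pass or had no adjusted p, with a median of −1.08. Over all genes with an adjusted p, 17.5% were lower. None of the 23 markers was listed at 0. Their summed level was 44276 normalised counts in EGFR-activated cells and 70753 in control cells, of which Tm1 and Msp-300 carried 86.5% in EGFR-activated cells and 82.7% in control cells. The other 21 markers, a division made after their values were seen, summed to 5956 in EGFR-activated cells and 12229.6 in control cells. The myosin heavy chain gene Mhc had 119 normalised counts in EGFR-activated cells and 448 in control cells (−1.91 ± 0.39, SE, adjusted p = 1.18e-05 in the authors' deposited table). The muscle actin gene Act57B had 61.5 and 204 in EGFR-activated and control cells (−1.73 ± 0.45, SE, adjusted p = 0.000849 in the authors' deposited table). Per kb of exon over the 4 libraries, the 23 markers ran from 0.271 to 3050.4 normalised counts with a median of 50.9, Mhc standing at 31.3 and Act57B at 76.9. None of the 23 exceeded scb (6382) or mys (5084), 1 (Tm1) exceeded Vinc (1411), and 3 (Tm1, Prm and Msp-300) exceeded if (195). Tm1, Prm and Msp-300 are named here after their values were seen. Levels per kb do not show which cells a transcript came from. The part of the muscle sheath in the falls of scb, mys and Vinc was not tested.

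Follicle cell markers were present in both groups, as the label of the samples states. Of 17, 2 rose, 2 fell and 13 did not pass, with a median of −0.07 and none at 0. Their summed level was 348477 normalised counts in EGFR-activated cells and 427780 in control cells. Most of it came from the yolk protein genes Yp1 and Yp2, named after their values were seen. Yp1 had 98024 normalised counts in EGFR-activated cells and 129040 in control cells, and Yp2 had 106144 and 109424. The fold change was 0.87 ± 0.24 for tj, a follicle cell transcription factor, and −0.70 ± 0.33 for Fas3, an adhesion molecule (SE, adjusted p = 0.00216 and 0.0788 in the authors' deposited table). Germ line markers were also detected, with 1 of 12 lower, 0 higher and a median of −0.11. The germ line helicase gene vas was at −0.05 ± 0.48 (SE, adjusted p = 0.951 in the authors' deposited table). Of 7 hemocyte markers, 5 had an adjusted p. Of the 7, 1 fell, 0 rose and 6 did not pass or had no adjusted p, with a median of −0.18. Their summed level was 10863 normalised counts in EGFR-activated cells and 22585 in control cells. Most of that sum came from srp and crq, the latter also named after its values were seen. In EGFR-activated and control cells, srp had 5184 and 14972 normalised counts, and crq had 5446 and 7350. The marker that fell was srp, named after its value was seen, with a mean of 10078 (−1.53 ± 0.25, SE, adjusted p = 1.70e-08 in the authors' deposited table). The hemocyte gene Hml was at −0.10 ± 0.52 (SE, adjusted p = 0.912 in the authors' deposited table) with a mean of 36.0 normalised counts. Among 7 fat body markers 3 fell and 1 rose, with a median of −1.06 and 1 (Fbp1, named after its value was seen) listed at 0, and among 8 markers of nerve and trachea 2 fell and 0 rose, with a median of −0.72. An adjusted p was given for 5 of the fat body markers and 6 of the nerve and trachea markers. For each of these marker lists, the shares over all genes with an adjusted p were 17.5% lower and 18.0% higher. The part of these other cell types in the falls was not tested.

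Fold changes in these libraries followed gene length, and most of the 10 genes are long. Their median exonic length was 4743 bp, against 2073 bp for all genes with an adjusted p. The longest was rhea at 11083 bp and the shortest stck at 1583 bp. At the length of rhea the trend over all genes stood at −0.52, and rhea at −0.39 lay above it. At the length of stck the trend stood at 0.30, and stck at −0.16 lay below it. For scb, mys and Vinc the trend was −0.30, −0.25 and −0.18, so that they remained at −0.99, −0.76 and −0.74 after its removal. Then 2 of the 10 were lower and 1 (Dg) higher past the threshold, where 16.9% of 7772 genes were lower and 11.3% higher, and the median of the 10 was −0.04.

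**Figure D4:**
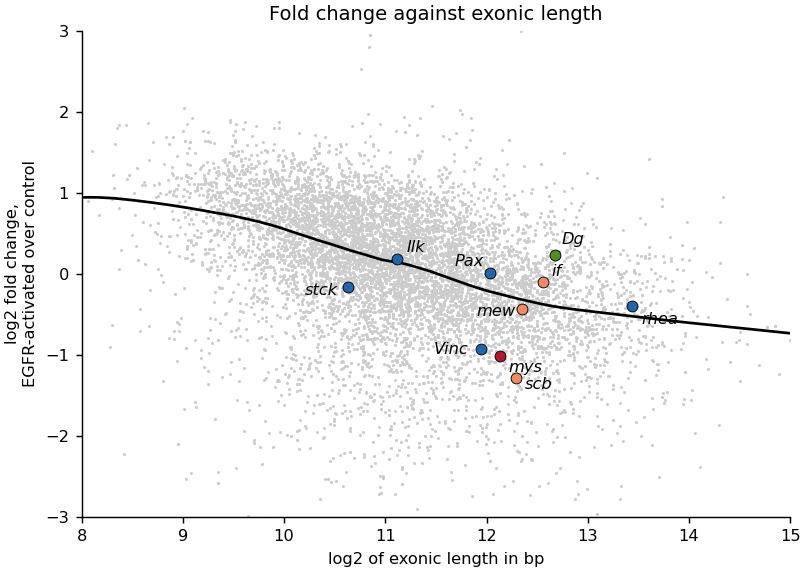
Log2 fold change of EGFR-activated over control cells against the log2 of exonic length for genes with a mean of at least 50 (grey, 7742 genes, with 30 more outside the axes), with the lowess trend as a line and the 10 genes coloured by role as in the plot of fold changes with intervals. The genes scb, mys and Vinc lie below the line, at −0.99, −0.76 and −0.74 relative to it, Dg lies above it at 0.64, and Ilk lies close to it at 0.04.

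The scaling between libraries also bears on the direction of the smaller values. The median of 84 ribosomal protein genes was at 0.93, and centring on it moved all genes down by that amount. On that scale all 10 genes were lower past the threshold, among 5341 lower and 95 higher of 9409 genes. The share of calls that were higher was 50.8% as deposited, 40.1% after removal of the length trend and 1.75% with the ribosomal centring. The genes scb, mys and Vinc had negative fold changes on every scale tried, scb from −2.22 to −0.99, mys from −1.94 to −0.76 and Vinc from −1.86 to −0.74.

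**Figure D5:**
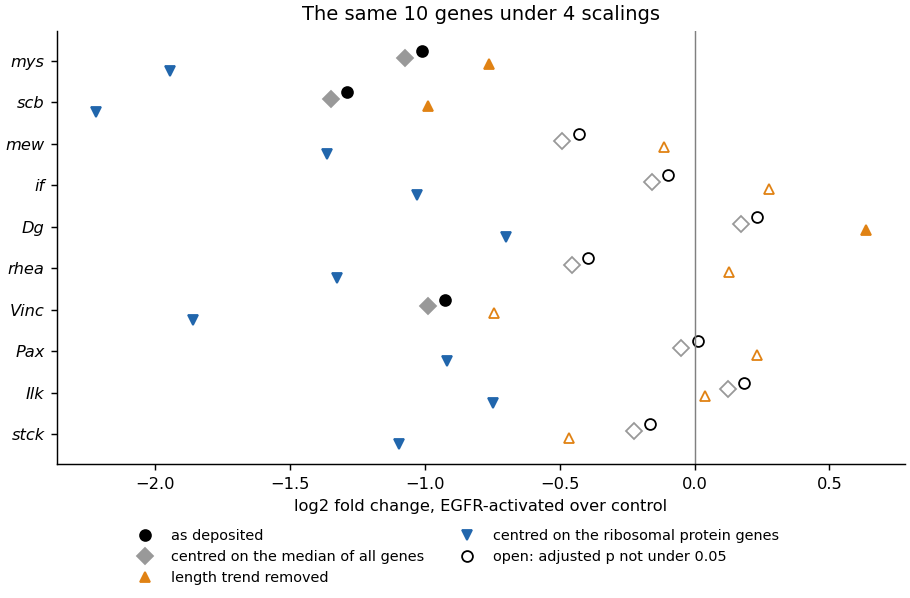
Log2 fold change of EGFR-activated over control cells for the 10 genes on 4 scales: as deposited (circles), centred on the median of all genes (diamonds), with the trend on exonic length removed (upward triangles) and centred on the ribosomal protein genes (downward triangles). Filled symbols have an adjusted p under 0.05; scb and mys are filled and negative on all 4 scales, while if, Dg, rhea, Pax and Ilk change sign between scales.

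The sources used here do not say whether reads were counted by strand, so overlaps with other genes were read from the BDGP6 annotation. Exons of 5 of the 10 genes overlapped those of another annotated gene or element. The largest was 299 bp of Pax, 7.12% of its exonic length, shared with genes on the opposite strand. For scb it was 45 bp of a transposable element, and mys, if, Dg, Ilk and Vinc had none.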

How the data were processed

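Per the labels' protocols, RNAqueous-Micro was used to isolate RNA from ovary follicle cells, followed by oligo-dT pulldown and ScriptSeq v2 library preparation. The submitters' processing notes name TopHat2 2.0.10, HTSeq 0.6.1, DESeq2 1.2.10 and the build BDGP5, with no settings. Per the file headers, the authors' deposited table holds for each gene its mean count scaled by size factors (a signal, over all libraries), the log2 fold change with its standard error, the Wald score, and p-values before and after adjustment. The version of DESeq2 that the authors used shrinks fold changes by default, which may understate those of low genes. Columns of other samples numbered 0. The deposited mean counts sum to 21565892 over 15682 genes, and depth per library was not analysed here. Of the 5 rows that hold no gene, all left out, those with reads took 41.2% (alignments not unique), 4.94% (no gene) and 0.896% (ambiguous) of the sum of means over all rows, these included.

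The design's test of library counts could not be used without such counts, so the authors' own adjusted p was taken, at a threshold of 0.05. Members and lists were chosen with earlier results of these data known. A further 10 lists held 126 entries, 124 of them matched to the table through symbols and RefSeq synonyms (release 6). Named were the 10 genes, up to 3 genes per list and direction by smallest adjusted p, 6 markers and Egfr; other names are marked in the text. Intervals are 95%, from the standard error. Exonic lengths and overlaps between genes came from the BDGP6 annotation, matched by gene name since the builds differ, and lengths covered 98.5% of the 7887 genes whose mean was 50 or more. A lowess curve on log2 length (span 0.3, statsmodels 0.14.6) was subtracted from the fold changes of these genes, and new p-values followed from the result and the deposited standard error. Python 3.11.15 and pandas 2.3.3 were used.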

Additional observations from a re-analysis of the deposited data

How the results depend on the processing

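The 8 alternatives were other thresholds (0.01 and 0.10), Benjamini-Hochberg adjustment over all 12650 genes with a p-value, Benjamini-Yekutieli adjustment, 2 centrings, a minimum mean of 50 and removal of the length trend. Centred on the ribosomal protein genes, 10 of the 10 receptors and adaptors were lower, with Dg, Ilk and Pax turned to −0.70, −0.75 and −0.92, as were 22 further adaptors, 6 genes of the dystroglycan complex and 6 matrix ligands, and 0 matrix ligands were higher. With the length trend removed, if and rhea turned to 0.28 and 0.13 and 1 of the 10 (Dg) was higher. On that scale 5 further adaptors were lower and 2 higher. Among matrix ligands 6 were higher, LanA included, and 1 was lower (mp no longer passed and Ndg was too low to enter). Pax turned to −0.048 when centred on the median of all genes. With Benjamini-Yekutieli adjustment 1 gene of the dystroglycan complex (Dyb) and 1 matrix ligand (Tig) were lower, and at 0.10 there was 1 higher among the further adaptors. Over all genes, 3340 were called as deposited, 1958 with Benjamini-Yekutieli adjustment, 5436 centred on the ribosomal protein genes and 2195 with the length trend removed. The cause of these shifts was not tested. No paired analysis was possible because the values used are not per library, and for the same reason no library could be left out and edgeR was not run. The lowest mean among the 10 was 1175 normalised counts, and the depth of single libraries was not analysed here.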
